A study of Mus musculus with 6 samples.

Results

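The genes that instruct osteoclast formation were followed through the nuclei of the mouse tibial periosteum before and after fracture. They are 6 of the 30406 genes listed for every library and were chosen by symbol: Tnfsf11 encodes RANKL, Tnfrsf11b encodes OPG, Tnfrsf11a encodes RANK, Csf1 encodes M-CSF, Il34 encodes IL-34 and Csf1r encodes the receptor CSF1R. All 6 were found in every library's gene list.

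RANKL is a member of the TNF family, held on the surface of stromal and skeletal cells or shed from it, and it binds RANK on monocyte and macrophage precursors to start their fusion into bone-resorbing osteoclasts. OPG is a secreted decoy receptor that captures RANKL, so the balance of both sets how much ligand reaches RANK. M-CSF and IL-34 are separate ligands of CSF1R, the receptor that keeps these precursors alive and dividing.

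The nuclei came from 12-week-old C57BL6 mice (C57BL/6ScNj in the methods), male and female mixed, with no transgene in any group. For fractured mice the methods describe ketamine, medetomidine and atipamezole around surgery and buprenorphine against pain. They describe no such drugs for uninjured mice, so fracture and these drugs cannot be told apart. The uninjured group had 2 libraries, each from the scraped periosteum of tibias of 4 mice whose marrow was flushed. Day 3 after an open, non-stabilized fracture of the tibia had 2 libraries and days 5 and 7 had 1 each, from the periosteum and hematoma of 4 to 9 pooled mice. Because the animals of a library were pooled, the p-values measure the spread between pools. Uninjured replicate 1 and the libraries of days 5 and 7 were made with Cell Ranger 6.0.0 and the others with 7.1.0, so days 5 and 7 cannot be told apart from that version when set against day 3.

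After filtering and the removal of myogenic nuclei, 6284 nuclei remained, between 347 and 2100 per library. Total UMIs (unique molecular identifiers, 1 per captured transcript) ranged from 1499281 to 29796296 per library and median UMIs per barcode from 882 to 2774.5. The 22 clusters gave 14 classes named from marker genes, and 1 cluster of 91 nuclei kept no name. SSPC-like (skeletal stem/progenitor), fibroblast-like, IIFC-like (injury-induced fibrogenic), osteoblast-like and chondrocyte-like nuclei are together called stromal, and macrophage-like, monocyte/dendritic-like and osteoclast-like nuclei myeloid. The fibroblast-like cluster led with Brinp1, Fgf7 and Bmper but scored 2.52 for IIFC markers against 2.07 for fibroblast markers, so its values are also given together with those of IIFC-like nuclei. Of the IIFC markers, Postn was at 3235 CPM (UMIs of the gene per 1000000 UMIs of the nuclei concerned) in IIFC-like and at 1683 CPM in fibroblast-like nuclei. Osteoclast-like nuclei numbered 90 in all, and 5 of them were in the uninjured libraries.

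Each gene had its own distribution over the classes. Of the 489 Tnfsf11 UMIs, 82.4% lay in stromal nuclei, which held 45.8% of all UMIs. Of the 202 Tnfrsf11b UMIs, 92.6% were stromal. Of the 3612 Tnfrsf11a and 1964 Csf1r UMIs, 85.7% and 89.3% lay in myeloid nuclei, which held 25.2% of all UMIs. Csf1 was 62.4% stromal by its 968 UMIs, and Il34 had 50.7% of its 596 UMIs in pericyte/SMC-like nuclei (pericytes and smooth muscle cells), which held 4.04% of all UMIs.

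**Figure D1:**
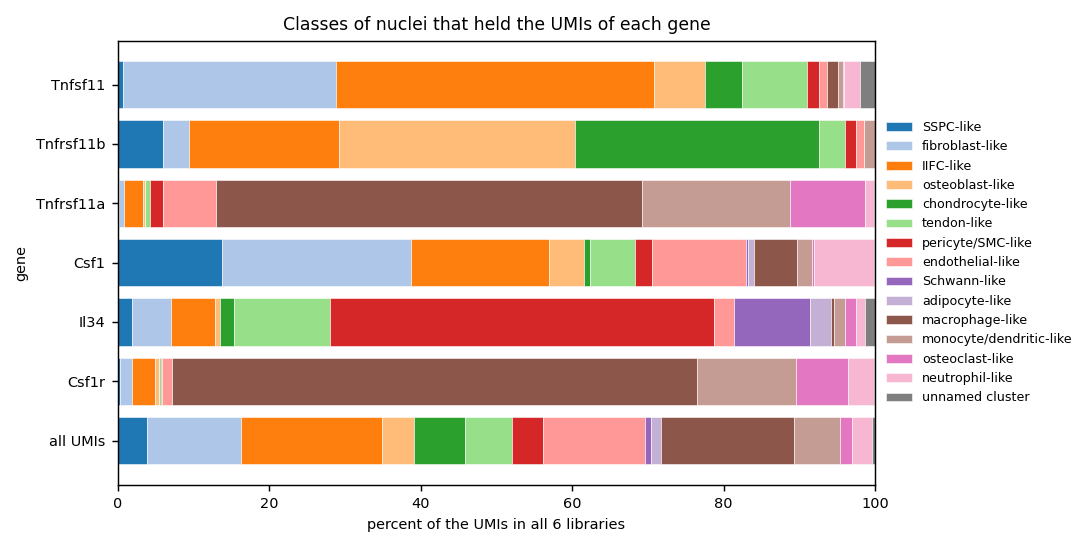
Share of each gene's UMIs, summed over the 6 libraries, that fell in each class of nuclei (x axis, percent; 1 bar per gene, and the lowest bar for all UMIs of all genes). Tnfsf11 and Tnfrsf11b bars are mostly stromal colours, Tnfrsf11a and Csf1r bars mostly macrophage-like, and the Il34 bar is led by pericyte/SMC-like nuclei with 50.7%.

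Tnfsf11, the ligand, lies on chromosome 14 at chr14:78277445-78308043 on the minus strand (GRCm38, GENCODE release M21), and 92.7% of that span is intron, which nuclear libraries counted with introns can read. The other ligand needed for osteoclast formation, Csf1, lies at chr3:107741048-107760469, also on the minus strand. The 250 bases before the start of each gene are printed because both encode the ligands that osteoclast formation needs. They come from RefSeq windows on GRCm38.p6, read 5′ to 3′ on the gene's strand, at chr14:78308044-78308293 for Tnfsf11 and chr3:107760470-107760719 for Csf1, and capitals mark the motif letters found.
Tnfsf11: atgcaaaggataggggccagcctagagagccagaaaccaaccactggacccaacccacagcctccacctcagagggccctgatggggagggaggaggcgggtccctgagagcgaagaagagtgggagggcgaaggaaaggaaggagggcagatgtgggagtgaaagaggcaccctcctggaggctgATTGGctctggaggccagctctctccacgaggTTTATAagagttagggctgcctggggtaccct
Csf1: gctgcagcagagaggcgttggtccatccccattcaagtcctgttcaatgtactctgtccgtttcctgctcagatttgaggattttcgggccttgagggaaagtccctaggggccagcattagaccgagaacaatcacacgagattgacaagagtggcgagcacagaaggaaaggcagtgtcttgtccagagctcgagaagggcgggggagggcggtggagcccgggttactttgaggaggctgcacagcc

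The windows were searched on both strands for the TATA box, spelled TATAAA, and the CCAAT box. The RUNX motif was spelled TGTGGT, the AP-1 motif TGANTCA and the CRE motif, which overlaps no other of these, TGACGTCA. The Tnfsf11 window held TTTATA, the TATA letters read on the reverse strand, from 32 to 27 bases before the start, and ATTGG, the reverse of CCAAT, from 64 to 60 bases before it. Of 32851 RefSeq windows of the same length, 12.4% held the TATA letters and 33.8% the CCAAT letters, while 14.0% held the RUNX letters, 6.75% the AP-1 letters and 1.55% the CRE letters. The Csf1 window and that of Tnfrsf11a held none of the 5 motifs, and 3 of the 6 genes had a window. A match is a description of letters only.

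RANKL transcript was nearly absent from the uninjured periosteum and present at every time after fracture. In stromal nuclei, Tnfsf11 was at 0 CPM (0 UMIs in 93 nuclei) and 5.43 CPM (7 UMIs in 298 nuclei) in the uninjured libraries and at 63.4 CPM (25 UMIs in 120 nuclei) and 49.5 CPM (89 UMIs in 252 nuclei) at day 3. The day 3 libraries were both above the uninjured ones without overlap, at 56.5 ± 9.78 against 2.71 ± 3.84 CPM (SD, n = 2 each). It stood at 43.7 CPM in the day 5 library and at 28.2 CPM in the day 7 library, between the uninjured and the day 3 values. Day 5 (237 UMIs) and day 7 (45 UMIs) had 1 library each and were not tested. A single IIFC-like nucleus held a large part of the IIFC-like Tnfsf11 UMIs of day 3 replicate 2, as given under other observations.

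The question put by the series, how the periosteum responds to fracture, could be tested at day 3. edgeR's quasi-likelihood test on stromal UMIs summed per library gave a log2 fold change of 3.50 ± 0.75 (SE) for Tnfsf11, with an adjusted p of 0.0180 over 9361 genes tested. Genes called higher at day 3 made up 3.44% of the genes tested and genes called lower 4.78%, and the median log2 fold change of all genes was 0.01. Within the libraries processed with Cell Ranger 7.1.0, which leaves out uninjured replicate 1, the log2 fold change was 3.26 with an adjusted p of 0.00768. The call was lost without day 3 replicate 1 (log2 fold change 3.15, adjusted p = 0.0823) and at a clustering resolution of 0.8 (2.10, adjusted p = 0.168), where a cluster led by fibroblast genes took no name and left the stromal set. In sums over nuclei, fewer nuclei of a type and less RNA per nucleus cannot be told apart, and the IIFC-like share of stromal nuclei went from 5 of 93 and 19 of 298 to 63 of 120 and 131 of 252.

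Most stromal Tnfsf11 UMIs of day 3 lay in fibroblast-like and IIFC-like nuclei. Fibroblast-like nuclei held no Tnfsf11 UMI in the 55 and 137 uninjured nuclei, and 11 UMIs in 40 nuclei (78.0 CPM) and 45 UMIs in 74 nuclei (87.5 CPM) at day 3. Taken over both libraries of each group, the day 3 level of 85.4 CPM was 22.0-fold a floor of 3.88 CPM. A count of 3 UMIs over the uninjured pair would give that floor. Such floors allow for counting error of the uninjured side only, and the day 3 level enters as measured. The intervals given here hold counting error alone. edgeR's test on fibroblast-like nuclei alone, an alternative added after the data were seen, gave Tnfsf11 an adjusted p of 0.0131, with both uninjured libraries at 0. The IIFC markers of these fibroblast-like nuclei had a summed level of 1999 and 3505 CPM in the uninjured libraries and 4290 and 8292 CPM at day 3, so they moved with Tnfsf11. Without integration, the cluster led by Bmper, Sfrp1 and Svep1 held 0 and 2 uninjured and 19 and 113 day 3 nuclei, so the uninjured and day 3 nuclei joined in the class were apart there. The part of both in the result was not tested.

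At day 5 the fibroblast-like level was 56.0 CPM (65 UMIs) and at day 7 it was 59.1 CPM (17 UMIs). IIFC-like nuclei held 0 UMIs in 5 nuclei and 1 UMI in 19 nuclei (17.2 CPM) of the uninjured libraries and stood at 57.2 and 43.6 CPM in the day 3 libraries, 53.7 CPM at day 5 (136 UMIs in 479 nuclei) and 26.9 CPM at day 7 (16 UMIs in 316 nuclei). The day 7 interval of the IIFC-like nuclei, 15.4 to 43.7 CPM, lay below that of day 5, 45.02 to 63.5 CPM, with 1 library each. Fibroblast-like and IIFC-like nuclei together went from 0 and 1.33 CPM in the uninjured libraries to 66.0 and 59.1 CPM at day 3, 54.4 CPM at day 5 and 37.4 CPM at day 7. The low-depth IIFC-like cluster (278 nuclei, median 716.5 UMIs) was at 44.7 CPM and the deeper one (735 nuclei) at 47.6 CPM over all libraries.

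Osteoblast-like nuclei were the only stromal class with several Tnfsf11 UMIs before injury, 6 UMIs in 68 nuclei of uninjured replicate 2 (38.0 CPM), of which 5 were in 1 nucleus. They had 3 UMIs in 6 nuclei of day 3 replicate 1, all in 1 nucleus, 19.8 CPM in day 3 replicate 2 (3 UMIs), 35.5 CPM at day 5 (20 UMIs) and 16.3 CPM at day 7 (1 UMI). Chondrocyte-like nuclei, which form the cartilage of the callus, were at 15.9 CPM at day 5 and 15.9 CPM at day 7. SSPC-like nuclei held 3 UMIs in 235 nuclei, 3.35 CPM. Outside the stromal set, tendon-like nuclei held no UMI in the 37 and 88 uninjured nuclei and 19 UMIs over the day 3 libraries. The day 3 level over both libraries was 10.9-fold the uninjured floor. They then held 23 UMIs at day 5 (40.6 CPM) and none in 58 nuclei at day 7.

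**Figure D2:**
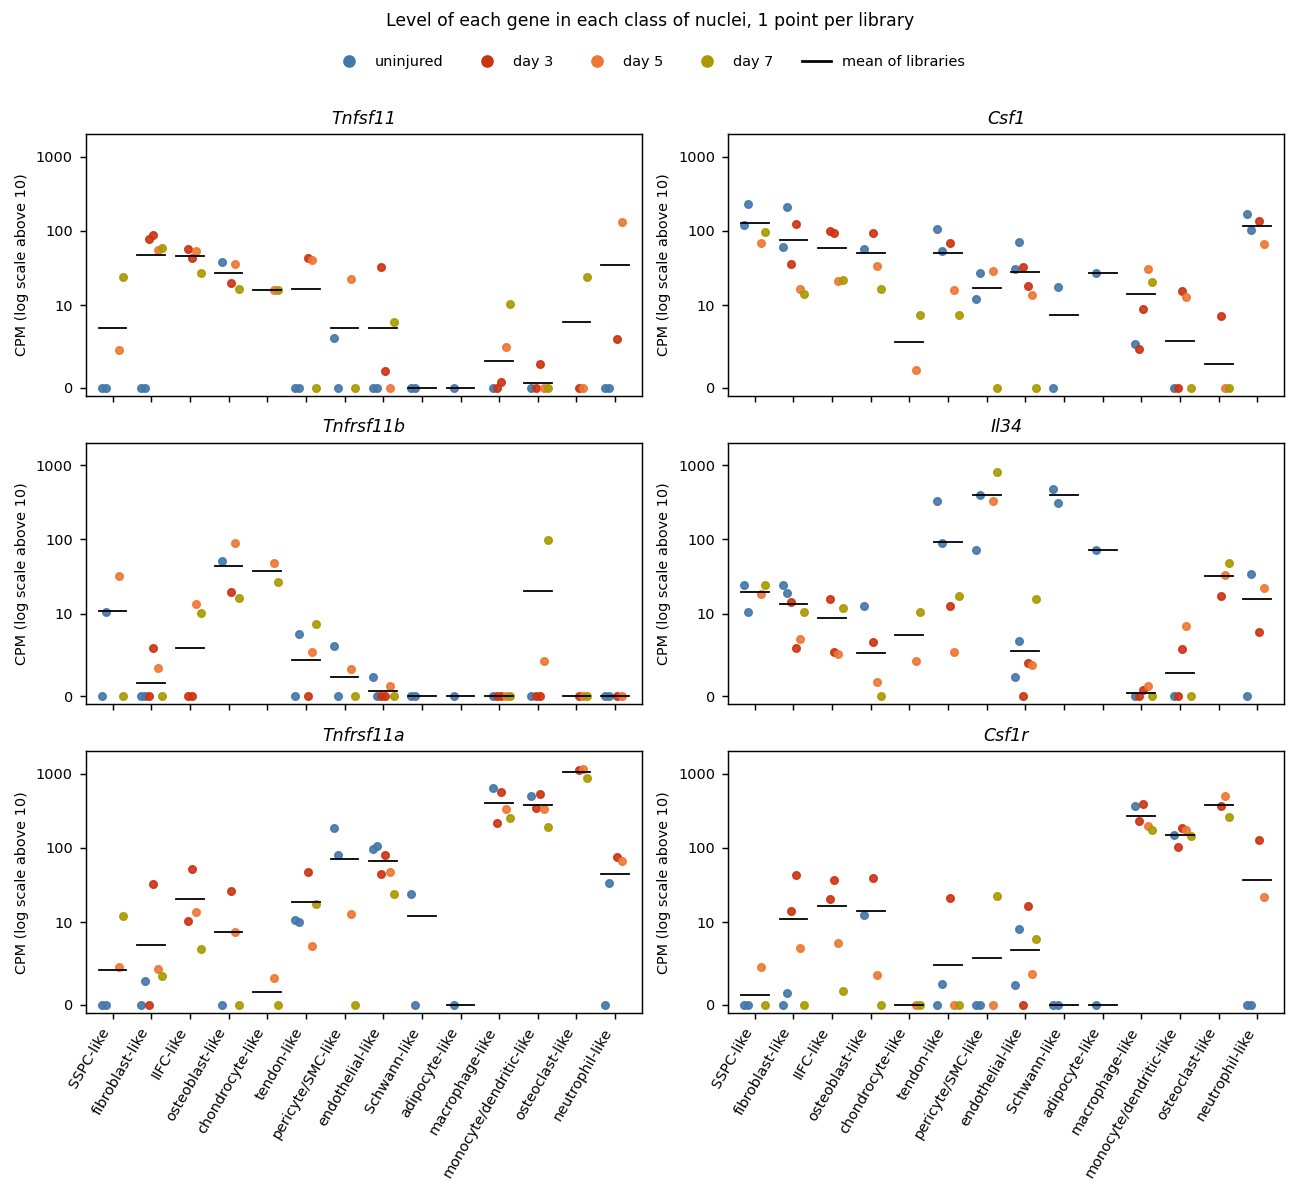
CPM of each gene (y axis, log scale above 10 and linear below) in each class of nuclei (x axis), with 1 point per library that held at least 20 nuclei of the class, coloured by time, and a bar at the mean of those libraries. Tnfsf11 points of the uninjured libraries sit at 0 in fibroblast-like nuclei under day 3 points of 78.0 and 87.5, Tnfrsf11a and Csf1r are highest in the myeloid classes, and Il34 in pericyte/SMC-like and Schwann-like nuclei.

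Ranked by the mean over libraries with at least 20 nuclei, Tnfsf11 was highest in fibroblast-like (46.8 ± 38.1 CPM, SD, n = 6) and IIFC-like nuclei (45.3 ± 13.6, n = 4), followed by neutrophil-like, osteoblast-like, tendon-like and chondrocyte-like nuclei. No class in this order differed from the next by more than the larger SD of the pair. Here and below, such SDs also hold differences between times, and the libraries averaged differ from class to class. The fibroblast-like mean includes the uninjured libraries at 0, while the IIFC-like libraries were all post-fracture. In each of those 4 libraries the fibroblast-like level given above was higher than the IIFC-like one. The neutrophil-like mean of 34.4 CPM came mostly from the day 5 library, with 6 UMIs in 27 nuclei, 4 of them in 1 nucleus. These 27 nuclei went against their name, with a summed level of 154 CPM for the 7 neutrophil markers (4 of them at 0) against 5848 CPM for the 6 IIFC markers and 2066 CPM for the 7 fibroblast markers, and are not read as a neutrophil value.

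Drawn down to 500 UMIs per nucleus, 2.18% of IIFC-like nuclei (95% exact binomial interval 1.37 to 3.29) and 1.72% of fibroblast-like nuclei (0.864 to 3.06) had a Tnfsf11 UMI. Macrophage-like nuclei, a class in which little RANKL is made, gave 0.314% (0.0648 to 0.914) at a median depth of 2647 UMIs, against 2971 and 2906 in the stromal classes. The IIFC-like interval lay above the macrophage-like one, and the fibroblast-like interval overlapped it at the edge. Without thinning, the shares were 11.5%, 12.1% and 0.731%.

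In the sum over all nuclei, Tnfsf11 was at 1.09 and 2.30 CPM in the uninjured libraries, 43.7 and 15.3 CPM at day 3, 33.9 CPM at day 5 and 23.3 CPM at day 7. Both day 3 libraries were higher, by a log2 fold change of 3.89 ± 0.87 (SE) with an edgeR adjusted p of 0.0486. Of the 12646 genes tested there, 2.70% were called higher and 5.93% lower. That call did not hold without uninjured replicate 1 (log2 fold change 3.71, adjusted p = 0.116), without uninjured replicate 2 (4.63, 0.106) or without day 3 replicate 1 (2.85, 0.0716).

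OPG transcript lay in the skeletal classes. Tnfrsf11b (chr15:54250619-54278484, minus strand) was highest in osteoblast-like nuclei, at 50.6 CPM in uninjured replicate 2 (8 UMIs in 68 nuclei), 19.8 CPM in day 3 replicate 2 (3 UMIs), 88.7 CPM at day 5 (50 UMIs in 154 nuclei) and 16.3 CPM at day 7 (1 UMI). Osteoblast-like nuclei of uninjured replicate 1 and day 3 replicate 1, 6 in each, held 0 UMIs and 1 UMI. The day 5 value was the highest, and 18 of its 50 UMIs were in 1 nucleus.

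Chondrocyte-like nuclei had 47.7 CPM of Tnfrsf11b at day 5 (45 UMIs, at most 4 in 1 nucleus) and 26.5 CPM at day 7 (15 UMIs). IIFC-like nuclei held no Tnfrsf11b UMI in either uninjured or either day 3 library, then 34 UMIs at day 5 (13.4 CPM) and 6 UMIs at day 7 (10.1 CPM). The 52 Tnfsf11 UMIs of the same day 3 IIFC-like nuclei came at a depth where a count of 3 UMIs would stand at 2.65 CPM. Fibroblast-like nuclei held 7 Tnfrsf11b UMIs in all, 2.43 CPM.

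Macrophage-like, neutrophil-like and osteoclast-like nuclei held no Tnfrsf11b UMI. Over the 957 macrophage-like nuclei this allows at most 0.907 CPM (exact Poisson 95% interval). Over the libraries with at least 20 nuclei, the means were 43.9 ± 33.6 CPM (SD, n = 4) in osteoblast-like and 37.1 ± 15.01 CPM (n = 2) in chondrocyte-like nuclei, which differed by less than the larger SD. In monocyte/dendritic-like nuclei 2 of the 3 UMIs behind a mean of 20.3 CPM were in 28 nuclei of day 7. Only 2 of the 6 monocyte/dendritic markers had a UMI in the myeloid nuclei of that library. Thinned to 500 UMIs, 1.33% of osteoblast-like nuclei (0.363 to 3.37) and 1.18% of chondrocyte-like nuclei (0.383 to 2.72) had a Tnfrsf11b UMI, against 0 of 956 macrophage-like nuclei, which allows a share of up to 0.314%. The unthinned shares were 7.28%, 10.1% and 0% at median depths of 1800, 2254 and 2647 UMIs.

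Summed over stromal nuclei, Tnfrsf11b was at 0 and 9.30 CPM in the uninjured libraries, 5.07 and 6.12 CPM at day 3, 25.8 CPM at day 5 and 13.8 CPM at day 7. The day 3 values lay between the uninjured ones. The gene passed the low-count filter of none of the 4 day 3 tests, so those fits did not test it. With no filter, edgeR gave a log2 fold change of -0.33 in stromal nuclei (adjusted p = 0.925) and -0.70 in all nuclei (adjusted p = 0.802). In stromal nuclei the gene passed the filter without uninjured replicate 1 (log2 fold change -0.83) and without day 3 replicate 1 (-0.51). The day 5 interval in stromal nuclei, 21.7 to 30.5 CPM, lay above the day 3 replicate 2 interval, 3.06 to 10.96 CPM, with 1 library at day 5.

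**Figure D3:**
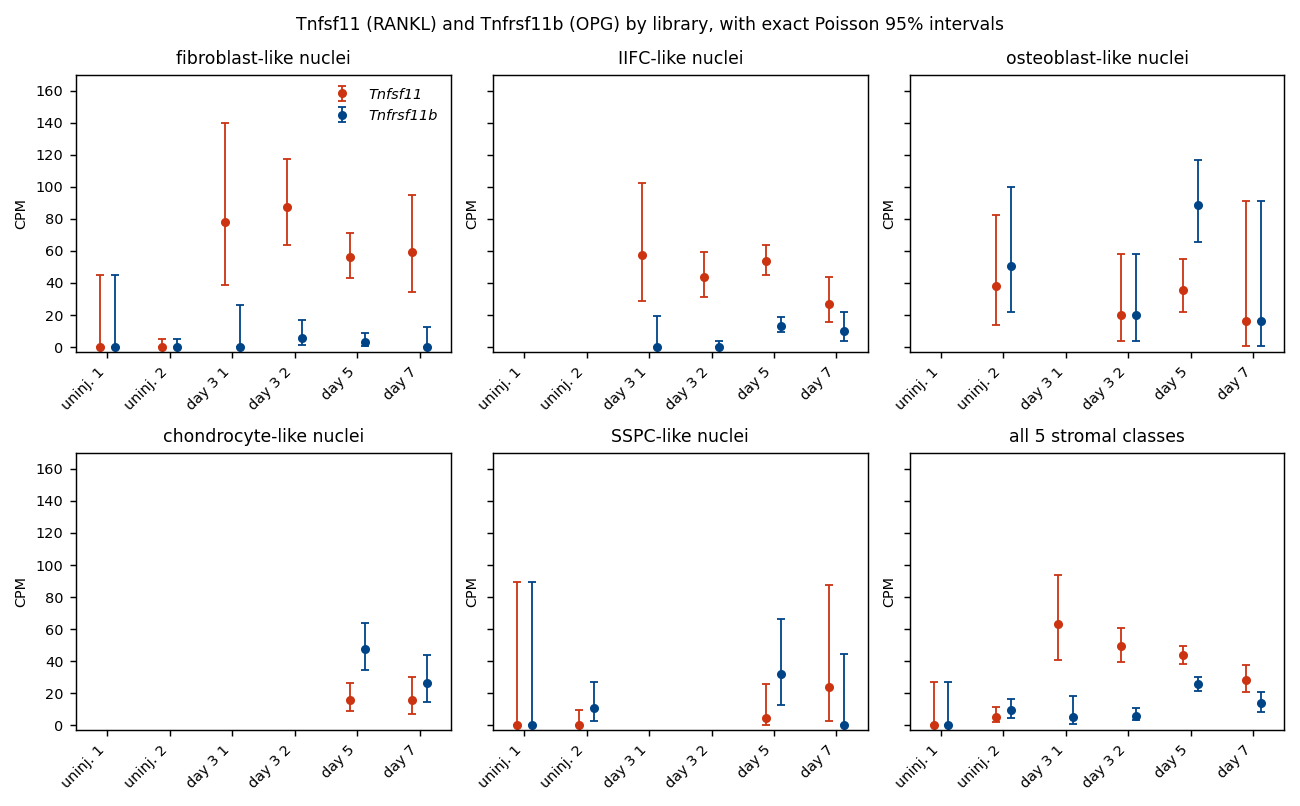
CPM of Tnfsf11 (red) and Tnfrsf11b (blue) in each library (x axis) for 5 stromal classes and their sum, with exact Poisson 95% intervals (counting error only); libraries with fewer than 20 nuclei of a class are not drawn. In fibroblast-like and IIFC-like nuclei the red points stand above the blue ones from day 3 on, and at day 5 the blue points stand above the red in osteoblast-like (88.7 against 35.5) and chondrocyte-like nuclei (47.7 against 15.9).

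The ligand and its decoy differed in their classes, so the ratio of their UMIs changed from class to class. In fibroblast-like nuclei there were 138 Tnfsf11 and 7 Tnfrsf11b UMIs, so 95.2% (exact binomial 95% interval 90.3 to 98.0) of the pair's UMIs were Tnfsf11. In IIFC-like nuclei 205 against 40 UMIs gave 83.7% (78.4 to 88.1). Osteoblast-like nuclei went the other way, 33 against 63 UMIs or 34.4% (24.98 to 44.8), as did chondrocyte-like nuclei, 24 against 65 UMIs or 27.0% (18.1 to 37.4). The intervals of the fibrogenic classes did not overlap those of the skeletal classes. They take each UMI as a separate draw, although single nuclei held many, as given above for osteoblast-like Tnfrsf11b, and libraries were pooled.

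Per kilobase of gene with introns, the ratio of Tnfsf11 to Tnfrsf11b was 18.0 in fibroblast-like, 4.67 in IIFC-like, 0.477 in osteoblast-like and 0.336 in chondrocyte-like nuclei. Within the day 5 library, which had the most summed UMIs in these 4 classes, the share of Tnfsf11 was 94.2% (85.8 to 98.4) in fibroblast-like, 80.0% (73.2 to 85.7) in IIFC-like, 28.6% (18.4 to 40.6) in osteoblast-like and 25% (14.7 to 37.9) in chondrocyte-like nuclei. The order of the classes was therefore present inside 1 library.

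By time, stromal nuclei held 7 Tnfsf11 against 12 Tnfrsf11b UMIs in uninjured replicate 2 and none of either in uninjured replicate 1. The day 3 libraries held 25 against 2 and 89 against 11 UMIs, ratios of 12.5 and 8.09. The ratio was 1.69 at day 5 (237 against 140) and 2.05 at day 7 (45 against 22). As shares of Tnfsf11, day 3 replicate 2 gave 89.0% (81.2 to 94.4), above uninjured replicate 2 with 36.8% (16.3 to 61.6) and above day 5 with 62.9% (57.8 to 67.8). The classes summed differ between times, since chondrocyte-like nuclei numbered 9 at day 3 and 410 at days 5 and 7.

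Few nuclei held both transcripts. Of 2613 stromal nuclei, 227 had a Tnfsf11 UMI, 102 a Tnfrsf11b UMI and 7 had both, which is 3.08% of the first and 6.86% of the second. Those 7 nuclei had a median of 7948 UMIs against 2627 for all stromal nuclei. In osteoblast-like nuclei, 17 and 22 nuclei had one of the transcripts and none had both.

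RANK transcript was concentrated in the myeloid classes and was highest in osteoclast-like nuclei. Tnfrsf11a (chr1:105780718-105847981, plus strand) stood in osteoclast-like nuclei at 1141 CPM in day 3 replicate 2 (131 UMIs in 23 nuclei), 1165 CPM at day 5 (178 UMIs in 27 nuclei) and 885 CPM at day 7 (37 UMIs in 21 nuclei). The 14 nuclei of day 3 replicate 1 gave 345 CPM (9 UMIs), and the 5 uninjured nuclei held 2 UMIs. Day 3 replicate 1 was thus below the other post-fracture libraries.

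Macrophage-like nuclei had 646 CPM of Tnfrsf11a in uninjured replicate 2 (122 UMIs in 44 nuclei), 219 and 570 CPM at day 3, 332 CPM at day 5 and 255 CPM at day 7. The 8 macrophage-like nuclei of uninjured replicate 1 held no UMI. Monocyte/dendritic-like nuclei had 508 CPM in uninjured replicate 2, 342 and 541 CPM at day 3, 340 CPM at day 5 and 194 CPM at day 7. Both day 3 values were below that of uninjured replicate 2 in macrophage-like nuclei, and they lay on both sides of it in monocyte/dendritic-like nuclei. Over all myeloid nuclei, the 6 monocyte/dendritic markers summed to 1237 CPM in uninjured replicate 2 and to 83.5 and 1308 CPM at day 3. They summed to 386 CPM at day 5 and to 31.2 CPM at day 7, where 2 of the 6 had a UMI. The monocyte/dendritic name is therefore less well borne out in day 3 replicate 1 and at day 7.

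By the mean over libraries with at least 20 nuclei, osteoclast-like nuclei (1064 ± 155 CPM, SD, n = 3) exceeded macrophage-like nuclei (404 ± 192, n = 5) by more than the larger SD. Macrophage-like and monocyte/dendritic-like nuclei (385 ± 141, n = 5) did not differ beyond it, and both were above the next class, pericyte/SMC-like nuclei (70.2 ± 85.6, n = 4). Thinned to 500 UMIs, 37.8% of osteoclast-like nuclei (27.8 to 48.6), 18.3% of macrophage-like (15.9 to 20.9) and 15.6% of monocyte/dendritic-like nuclei (12.5 to 19.2) had a Tnfrsf11a UMI, against 0.384% (0.184 to 0.705) of stromal nuclei. Median depths were 2490.5, 2647, 1575 and 2627 UMIs, and the unthinned shares 76.7%, 55.5%, 36.3% and 2.76%.

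In the myeloid sum, Tnfrsf11a was at 110 CPM (1 UMI in 14 nuclei) and 591 CPM in the uninjured libraries, 254 and 579 CPM at day 3, 439 CPM at day 5 and 412 CPM at day 7. The groups overlapped, at 351 ± 340 CPM uninjured and 417 ± 230 CPM at day 3 (SD, n = 2 each). edgeR gave a log2 fold change of 0.11 ± 0.86 (SE) with an adjusted p of 0.999 over 5146 genes tested. In that comparison 0.0583% of genes were called higher and 0.583% lower, with 1 uninjured library of 9073 myeloid UMIs. Without TMM scaling, which moved the median of all genes from 0.16 to -0.04, the value was -0.12. Without uninjured replicate 2, the only uninjured value left being that 1 UMI, the log2 fold change was 3.09 with an adjusted p of 0.0388, while the median of all genes rose to 2.31.

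Endothelial-like nuclei also carried Tnfrsf11a, at 97.2 and 107 CPM in the uninjured libraries (41 and 127 UMIs), 44.1 and 81.5 CPM at day 3 (4 and 40 UMIs), 47.2 CPM at day 5 and 23.9 CPM at day 7. Both day 3 values were below both uninjured values, at 62.8 ± 26.4 against 102 ± 6.57 CPM (SD, n = 2 each). The difference did not pass edgeR's test (log2 fold change -0.70 ± 0.39 SE, adjusted p = 0.417 over 7071 genes, of which 1.74% were called higher and 1.63% lower). The macrophage markers had a summed level of 140 and 174 CPM in the uninjured endothelial-like nuclei and of 364 and 228 CPM at day 3. Adgre1, Mrc1 and C1qa were at 0 in uninjured replicate 1, and the 364 CPM came from 38 nuclei. The part of these markers in the Tnfrsf11a level was not tested.

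Pericyte/SMC-like nuclei had 187 and 80.9 CPM of Tnfrsf11a in the uninjured libraries (31 and 27 UMIs), 12.97 CPM at day 5 (4 UMIs in 76 nuclei) and 0 UMIs in 32 nuclei at day 7. Day 3 had 13 such nuclei with 1 UMI. The uninjured values stood above the later ones, and these were not tested. The macrophage markers had a summed level of 1008 and 728 CPM in the uninjured libraries, 243 CPM at day 5 and 135 CPM at day 7. Of the 6 markers, 2 and 3 had a UMI in the uninjured libraries. Adgre1, Mrc1, C1qa and F13a1 were at 0 in replicate 1, and Adgre1, Cd84 and C1qa in replicate 2. The part of these markers in the Tnfrsf11a level was not tested. Without integration the class split into a cluster led by Myh11, a smooth muscle gene, with 60 and 59 uninjured, 10 day 5 and 2 day 7 nuclei, and a cluster led by Rgs5, a pericyte gene, with 2 and 5 uninjured, 65 day 5 and 31 day 7 nuclei. Time and the mix of both kinds of nuclei therefore cannot be told apart in this class.

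In all nuclei together, Tnfrsf11a was at 82.0 and 83.9 CPM in the uninjured libraries, 94.4 and 344 CPM at day 3, 74.6 CPM at day 5 and 38.3 CPM at day 7. Day 3 replicate 2 stood far above every other library, and the log2 fold change of 1.32 ± 0.52 (SE) had an edgeR adjusted p of 0.180. Without day 3 replicate 1 it was 1.91 with an adjusted p of 0.0249. Myeloid nuclei made up 14 of 476 and 66 of 906 uninjured nuclei and 155 of 347 and 610 of 1352 day 3 nuclei.

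M-CSF transcript was spread over many classes and was highest, by mean, in SSPC-like nuclei. Csf1 stood there at 121 and 232 CPM in the uninjured libraries (5 and 87 UMIs), 69.1 CPM at day 5 (15 UMIs) and 96.8 CPM at day 7 (8 UMIs). Day 3 had 8 SSPC-like nuclei with 0 UMIs and 17 with 18 UMIs (122 CPM). The uninjured values were above those of days 5 and 7, but the interval of replicate 1 overlapped theirs, with 39.3 to 283 CPM for uninjured replicate 1 and 186 to 286 CPM for replicate 2 against 38.7 to 114 CPM at day 5.

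Fibroblast-like nuclei had 60.6 and 208 CPM of Csf1 in the uninjured libraries, 35.5 and 124 CPM at day 3, 16.4 CPM at day 5 and 13.9 CPM at day 7. Days 5 and 7 were below every earlier library, while the uninjured and day 3 values overlapped. IIFC-like nuclei had 98.7 and 92.5 CPM at day 3 (19 and 87 UMIs), 20.9 CPM at day 5 (53 UMIs) and 21.8 CPM at day 7 (13 UMIs). Their day 5 interval of 15.7 to 27.4 CPM lay below those of both day 3 libraries, 59.4 to 154 and 74.1 to 114 CPM.

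In the stromal sum, Csf1 was at 87.1 and 191 CPM in the uninjured libraries, 60.8 and 102 CPM at day 3, 19.9 CPM at day 5 and 19.5 CPM at day 7. The uninjured and day 3 libraries overlapped, at 139 ± 73.2 and 81.4 ± 29.0 CPM (SD, n = 2 each). edgeR gave a log2 fold change of -0.94 ± 0.42 (SE) with an adjusted p of 0.238, and no alternative setting brought the adjusted p under 0.0711. Endothelial-like nuclei had 30.8 and 70.4 CPM, then 33.1 and 18.3 CPM at day 3, with a log2 fold change of -1.40 ± 0.66 and an adjusted p of 0.331.

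Neutrophil-like nuclei had 135 CPM of Csf1 in day 3 replicate 2 (69 UMIs in 371 nuclei), where all 7 neutrophil markers had a UMI and summed to 7207 CPM. In the same nuclei the IIFC markers summed to 1989 CPM and the macrophage markers to 1348 CPM. The nuclei put in this class in the other libraries bore the name less well: the markers were all at 0 in uninjured replicate 1 (21 nuclei, 2 Csf1 UMIs) and summed to 779 CPM in uninjured replicate 2 (38 nuclei, 3 Csf1 UMIs) and 154 CPM at day 5 (27 nuclei, 3 Csf1 UMIs). The mean over these 4 libraries, 118 ± 44.4 CPM (SD), did not differ from the SSPC-like mean of 130 ± 71.4 (n = 4) beyond the spread, but only the day 3 library is read as a neutrophil value. Thinned to 500 UMIs, 8.12% of SSPC-like (4.96 to 12.4), 5.52% of neutrophil-like (3.64 to 7.98) and 3.61% of fibroblast-like nuclei (2.30 to 5.36) had a Csf1 UMI, against none of 425 chondrocyte-like nuclei, which allows a share of up to 0.706%. Median depths were 2372, 999.5, 2906 and 2254 UMIs, and the unthinned shares were 28.5%, 10.1%, 16.3% and 1.41%.

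**Figure D4:**
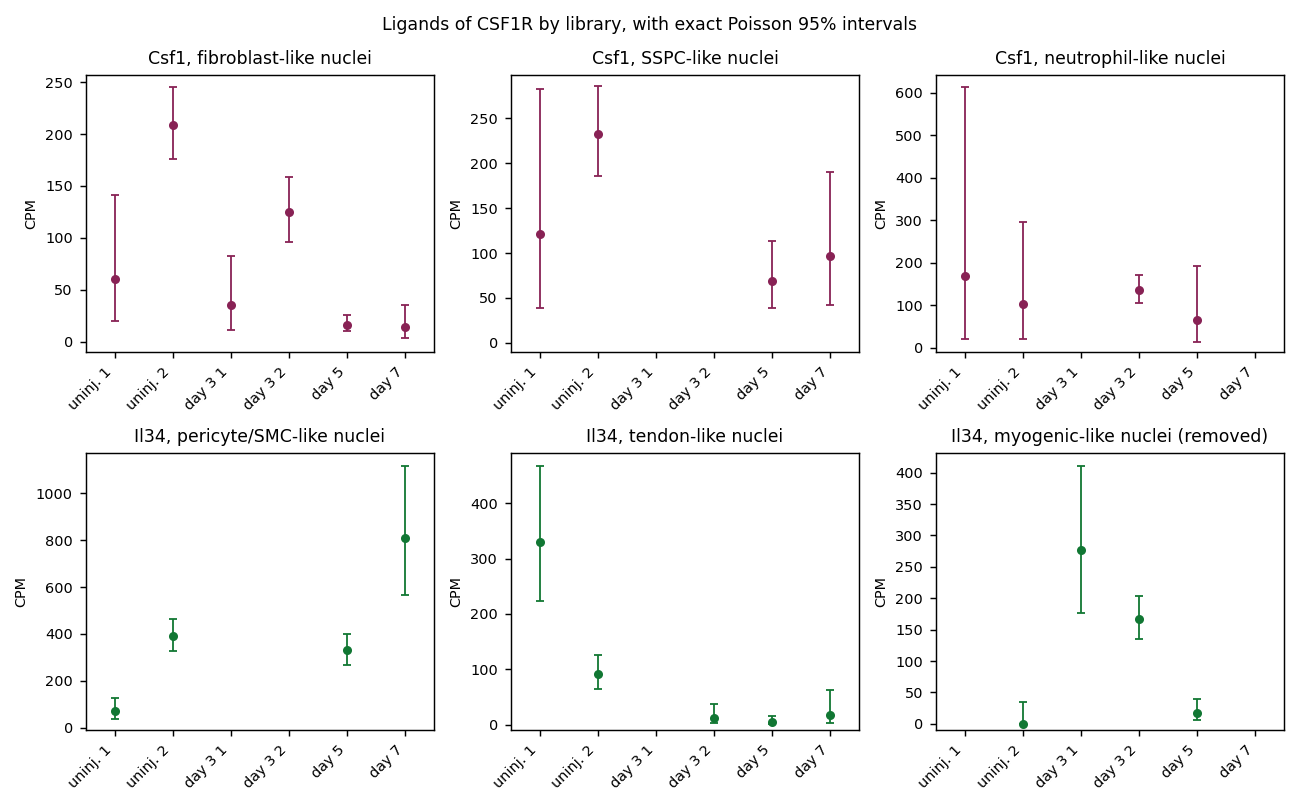
CPM of Csf1 (fibroblast-like, SSPC-like and neutrophil-like nuclei) and of Il34 (pericyte/SMC-like and tendon-like nuclei and the removed myogenic-like cluster) by library (x axis), with exact Poisson 95% intervals; each panel has its own linear y axis, and libraries with fewer than 20 nuclei of the class are not drawn. Csf1 in fibroblast-like nuclei runs from 60.6 and 208 in the uninjured libraries to 13.9 at day 7, and Il34 in pericyte/SMC-like nuclei is at 72.4 and 392 before injury and 807 on day 7, with a different mix of smooth muscle and pericyte nuclei.

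IL-34 transcript belonged to the mural and nerve-sheath classes instead. Il34 (chr8:110741829-110805924, minus strand) stood in pericyte/SMC-like nuclei at 72.4 and 392 CPM in the uninjured libraries (12 and 131 UMIs), 331 CPM at day 5 (102 UMIs) and 807 CPM at day 7 (36 UMIs in 32 nuclei). The 9 such nuclei of day 3 replicate 2 had 274 CPM (21 UMIs) and the 4 of replicate 1 none. The uninjured libraries differed from each other by more than uninjured replicate 2 differed from day 5, and the class held different shares of Myh11-led and Rgs5-led nuclei at each time, as given above.

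Schwann-like nuclei had 480 and 308 CPM of Il34 in the uninjured libraries (20 and 35 UMIs in 23 nuclei each), and later libraries held at most 7 of them. Tendon-like nuclei had 329 and 90.7 CPM in the uninjured libraries (31 and 36 UMIs), 19.9 and 12.8 CPM at day 3 (1 and 3 UMIs), 5.30 CPM at day 5 (3 UMIs in 110 nuclei) and 17.5 CPM at day 7 (2 UMIs). Both uninjured values were above every later one. Means over libraries with at least 20 nuclei were 401 ± 304 CPM (SD, n = 4) in pericyte/SMC-like and 394 ± 122 CPM (n = 2) in Schwann-like nuclei, which did not differ beyond their spread, and Schwann-like nuclei exceeded tendon-like nuclei (91.2 ± 138, n = 5) by more than it.

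Thinned to 500 UMIs, 14.98% of pericyte/SMC-like nuclei (10.8 to 20.1) and 21.3% of Schwann-like nuclei (11.9 to 33.7) had an Il34 UMI, against 0.105% (0.00265 to 0.581) of macrophage-like nuclei. Their median depths were 2729, 2147 and 2647 UMIs, and the unthinned shares were 42.1%, 37.7% and 0.313%. In stromal nuclei the level was low, 29.0 and 18.6 CPM uninjured and 12.7 and 5.57 CPM at day 3, with a log2 fold change of -1.54 ± 0.78 (SE) and an edgeR adjusted p of 0.305. With tendon-like nuclei added to the stromal set the log2 fold change was -3.37 with an adjusted p of 0.0300.

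Over all nuclei, Il34 was at 74.3 and 66.3 CPM in the uninjured libraries, 8.05 and 7.24 CPM at day 3, 18.0 CPM at day 5 and 29.1 CPM at day 7. The groups did not overlap (70.3 ± 5.68 against 7.65 ± 0.578 CPM, SD, n = 2 each), and Il34 fell by 3.28 ± 0.41 (SE) on the log2 scale with an edgeR adjusted p of 0.0194 (-3.11 and 0.0417 within Cell Ranger 7.1.0). Pericyte/SMC-like nuclei numbered 62 of 476 and 64 of 906 in the uninjured libraries and 4 of 347 and 9 of 1352 at day 3. With the removed myogenic nuclei kept, the log2 fold change was -0.25 with an adjusted p of 0.892.

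CSF1R transcript, for the shared receptor of both ligands, lay mostly in the same myeloid classes as RANK transcript. Csf1r, on chromosome 18, stood in macrophage-like nuclei at 365 CPM in uninjured replicate 2 (69 UMIs in 44 nuclei), 233 and 387 CPM at day 3 (50 and 1062 UMIs), 197 CPM at day 5 and 174 CPM at day 7. The 8 nuclei of uninjured replicate 1 held 2 UMIs (454 CPM). The day 3 libraries lay on both sides of uninjured replicate 2.

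Osteoclast-like nuclei had 366 CPM of Csf1r in day 3 replicate 2 (42 UMIs), 504 CPM at day 5 (77 UMIs) and 263 CPM at day 7 (11 UMIs), and the 14 nuclei of day 3 replicate 1 held 2 UMIs. Monocyte/dendritic-like nuclei had 149 CPM in uninjured replicate 2, 103 and 187 CPM at day 3, 174 CPM at day 5 and 146 CPM at day 7. The limit on that name in day 3 replicate 1 and at day 7, given above, holds here too. Over libraries with at least 20 nuclei, osteoclast-like (378 ± 121 CPM, SD, n = 3) and macrophage-like means (271 ± 98.5, n = 5) did not differ beyond the larger SD, and macrophage-like exceeded monocyte/dendritic-like nuclei (152 ± 32.5, n = 5). Thinned to 500 UMIs, 15.6% of osteoclast-like (8.77 to 24.7), 13.9% of macrophage-like (11.8 to 16.3) and 7.81% of monocyte/dendritic-like nuclei (5.56 to 10.6) had a Csf1r UMI, and none of 425 chondrocyte-like nuclei, which allows up to 0.706%. Unthinned, the shares were 47.8%, 50.2%, 27.3% and 0% at median depths of 2490.5, 2647, 1575 and 2254 UMIs.

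The myeloid sum of Csf1r stood at 331 and 303 CPM in the uninjured libraries, 194 and 333 CPM at day 3, 232 CPM at day 5 and 193 CPM at day 7. The groups overlapped, with 317 ± 19.6 CPM uninjured and 264 ± 98.6 CPM at day 3 (SD, n = 2 each), and the log2 fold change was 0.01 ± 0.76 (SE) with an edgeR adjusted p of 0.999, or -0.25 without TMM scaling. Both receptors were found together in 330 of 957 macrophage-like nuclei, 62.1% of those with Tnfrsf11a and 68.8% of those with Csf1r. In osteoclast-like nuclei 40 of the 43 nuclei with Csf1r also had Tnfrsf11a. Nuclei with both were deeper, at a median of 6397.5 UMIs among macrophage-like nuclei.

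In stromal nuclei Csf1r was at 0 and 2.33 CPM in the uninjured libraries (0 and 3 UMIs), 22.8 and 35.1 CPM at day 3 (9 and 63 UMIs), 5.54 CPM at day 5 and 0.628 CPM at day 7. Both day 3 libraries were higher, with a log2 fold change of 3.69 ± 0.85 (SE) and an edgeR adjusted p of 0.0247 (3.50 and 0.0254 within Cell Ranger 7.1.0). The call was lost with DESeq2 (adjusted p = 0.102), without day 3 replicate 1 (0.0815) and without uninjured replicate 2 (0.186), as well as at resolution 0.8 (0.0787). Macrophage markers were also higher at day 3. The summed level of the 6 genes was 58.1 and 107 CPM in the uninjured stromal nuclei (3 and 4 of 6 with a UMI, Adgre1 and C1qa at 0 in both). It was 248 and 384 CPM at day 3 (all 6 with a UMI), 341 CPM at day 5 and 402 CPM at day 7. The later sums included chondrocyte-like nuclei, at 982 CPM on day 5 and 852 CPM on day 7. Fibroblast-like nuclei had 60.6 and 57.9 CPM uninjured, 128 and 424 CPM at day 3, 145 CPM at day 5 and 181 CPM at day 7. The 6 monocyte/dendritic markers summed to 21.8 and 26.4 CPM uninjured, 30.4 and 251 CPM at day 3, 31.2 CPM at day 5 and 11.9 CPM at day 7. Neutrophil markers in the same nuclei summed to 43.6, 37.2, 22.8 and 170 CPM in the 4 uninjured and day 3 libraries. Their part in the result was not tested.

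Stromal Tnfrsf11a showed the same library at the top, with 0 and 2 UMIs in the uninjured libraries, 2 UMIs (5.07 CPM) and 71 UMIs (39.5 CPM) at day 3, 9.04 CPM at day 5 and 3.77 CPM at day 7. It did not pass the low-count filter with all 4 libraries. It passed without uninjured replicate 1 (log2 fold change 3.77, adjusted p = 0.0494), without uninjured replicate 2 (7.29, 0.304) and without day 3 replicate 1 (4.50, 0.0443). In day 3 replicate 2 the myogenic nuclei removed before the analysis also held 20.8 CPM of Tnfrsf11a and 17.1 CPM of Csf1r, against 3.96 and 1.98 CPM in day 3 replicate 1.

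In all nuclei, Csf1r was at 4.37 and 25.8 CPM uninjured, 77.1 and 205 CPM at day 3, 37.2 CPM at day 5 and 16.5 CPM at day 7. The day 3 libraries were both higher, but the log2 fold change of 3.03 ± 0.73 (SE) had an edgeR adjusted p of 0.0576. DESeq2 gave 3.12 with an adjusted p of 0.000439, and edgeR gave adjusted p of 0.0217 without uninjured replicate 2 and 0.0295 without day 3 replicate 1.

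**Figure D5:**
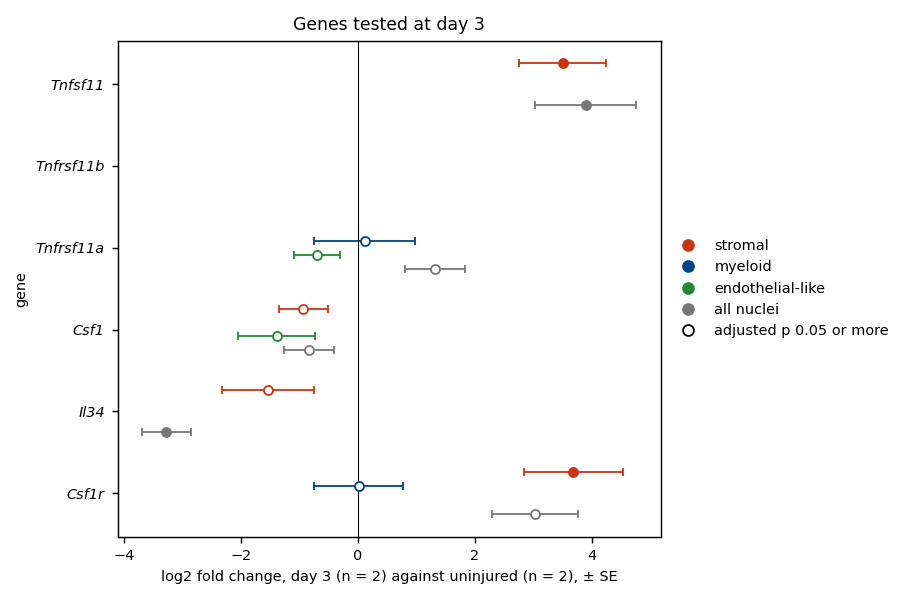
Log2 fold change (x axis) of day 3 against uninjured, 2 libraries each, for the genes that passed the low-count filter in each set of nuclei, with bars of 1 SE; filled points had an edgeR adjusted p under 0.05. Filled points are stromal Tnfsf11 (3.50) and Csf1r (3.69) and, over all nuclei, Tnfsf11 (3.89) and Il34 (-3.28); Tnfrsf11b has no point.

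Among the genes acting below RANK, 0 or 1 was called in each set, where 0.0583% to 5.93% of all genes were called per direction. Of the 17 RANK signal transduction genes (TRAF adaptors, kinases and NF-kB subunits), 16 were tested in stromal, 15 in myeloid and 15 in endothelial-like nuclei and edgeR and DESeq2 called none in these sets. At an unadjusted p under 0.05 edgeR gave 1, 0 and 1 genes. The medians of the log2 fold changes were 0.25, 0.26 and 0.16 against 0.01, 0.16 and -0.01 for all genes. In all nuclei 1 of 17, Traf3, an adaptor that restrains the non-canonical NF-kB pathway, was called higher (log2 fold change 1.44, adjusted p = 0.0412).

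Among osteoclast transcription factors and co-stimulatory genes, 13 of 14 were tested in myeloid nuclei and none was called by edgeR or DESeq2, with 1 at an unadjusted p under 0.05. In all nuclei 3 of 13 were called higher and none lower, beside 2.70% higher and 5.93% lower among all genes, and the median of the list was 2.26 on the log2 scale against 0.01 for all genes. Among those called higher were Irf8 (4.26), a factor that holds osteoclast formation back, and Fcer1g (3.51), an adaptor of co-stimulatory receptors. In stromal nuclei edgeR called Spi1, the myeloid factor PU.1, higher (4.09, adjusted p = 0.0233) and Mitf lower (-1.85), and DESeq2 called 1 gene. Macrophage markers also rose in stromal nuclei at day 3, as given above, and their part was not tested. Of 5 tested in endothelial-like nuclei, edgeR called Syk higher (2.27, adjusted p = 0.0478) and Plcg2 lower (-1.69, adjusted p = 0.0491). DESeq2 called none of them there. Among all genes in those nuclei, edgeR called 1.74% higher and 1.63% lower. Syk and Plcg2 both encode signalling enzymes of immune receptors. The rising myeloid fraction of nuclei given above moved with the calls in all nuclei, and its part was not tested.

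Osteoclast effectors were too scarce for most tests, with 5 of 12 tested in myeloid nuclei. Atp6v0d2, a subunit of the osteoclast proton pump, was called lower there (log2 fold change -3.78, edgeR adjusted p = 0.000766). Its level was 2425 CPM in the 14 myeloid nuclei of uninjured replicate 1 and 72.1, 46.8 and 36.2 CPM in uninjured replicate 2 and the day 3 libraries, so that the difference rests on 1 library, and DESeq2 called no effector there. Itgb3, an integrin subunit by which osteoclasts hold to bone, was called lower in stromal nuclei (-2.93) and in all nuclei (-2.08).

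Genes acting below CSF1R were called higher in all nuclei for 3 of 9, beside 2.70% of all genes, Pik3cd (2.84), a leukocyte PI3-kinase, Inpp5d (2.498), the phosphatase SHIP, and Grb2 (1.70), an adaptor, with a list median of 1.70 on the log2 scale. None of the 8 tested was called in myeloid nuclei by edgeR or DESeq2, and 0 had an unadjusted p under 0.05. In stromal nuclei 7 were tested, beside shares of 3.44% higher and 4.78% lower among all genes. Of these, Inpp5d was called higher (3.32) and Pik3r1, the PI3-kinase regulatory subunit, lower (-1.94). Macrophage markers in stromal nuclei and the myeloid share of all nuclei also rose at day 3, as given above. Their part in these calls was not tested.

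Of the other receptors, shedding enzymes and related haematopoietic factors, 8 of 14 were tested in stromal nuclei. The growth factors Kitl (log2 fold change -3.18) and Flt3l (-3.22) were called lower there and again in all nuclei (-2.30 and -2.28). Lgr4, another receptor for RANKL, was called lower in all nuclei (-1.76), and Flt3, the receptor of Flt3l, higher (4.83). Csf3r, a neutrophil receptor, was called higher by edgeR in stromal (8.58) and endothelial-like nuclei (4.22). In endothelial-like nuclei DESeq2 called no gene of this list. Csf3r is itself 1 of the 7 neutrophil markers. Their sum was 2.37 and 7.55 CPM in uninjured and 55.1 and 122 CPM in day 3 endothelial-like nuclei. In stromal nuclei that sum was raised in day 3 replicate 2 only, as given above.

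Receptors for signals that induce RANKL were called in stromal nuclei for 3 of 8 tested, 2 higher and 1 lower, beside 3.44% higher and 4.78% lower among all genes. Il1r1, the interleukin-1 receptor, was higher (log2 fold change 2.14, edgeR adjusted p = 0.0189), as was Osmr, the oncostatin M receptor (1.27, adjusted p = 0.0431). Il6ra, a subunit of the interleukin-6 receptor, was lower (-2.32, adjusted p = 0.0116). DESeq2 called 2 of the 8 in stromal nuclei. The IIFC-like share of stromal nuclei also rose at day 3, as given above, and its part in these calls was not tested. The median of the 8 was 0.85 against 0.01 for all genes, and in myeloid, endothelial-like and all nuclei edgeR called none (0, 1 and 2 at an unadjusted p under 0.05) and DESeq2 called 0, 0 and 1.

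Across the 55 sums of 1 class in 1 library with at least 20 nuclei, over 14 classes and 11075 genes, the genes most like Tnfsf11 by Pearson's correlation of log2(CPM + 10) were Pappa (0.76), P4ha3 (0.75) and Kif26b (0.75). Pappa encodes a protease that frees insulin-like growth factors. Those most like Tnfrsf11b were Wif1 (0.77), a secreted Wnt inhibitor, Rab27b (0.72) and Gm10635 (0.71).

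For Csf1 they were Efemp1 (0.74), Podn (0.72) and Pdgfra (0.69), and for Il34 Pde8b (0.74), Sema5a (0.68) and Akap12 (0.68). The gene most like Tnfrsf11a was Csf1r (0.85), followed by Spi1 (0.85) and Laptm5 (0.85), and those most like Csf1r were Spi1 (0.96), Slc37a2 (0.94) and Pik3ap1 (0.93). These correlations describe sums that share libraries, depth and classes.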

How the data were processed

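The authors deposited 1 matrix of UMI counts per library, 6 in all, without normalization, from reads that Cell Ranger had aligned to mm10 with introns included. The file headers give version 6.0.0 for uninjured replicate 1, day 5 and day 7 and version 7.1.0 for uninjured replicate 2 and both day 3 libraries. Libraries held 655 to 4712 barcodes, of which 0 to 15 per library were shared with another, and counts were limited to the 30406 shared genes.

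Limits of 200 to 5000 genes, below 2% of UMIs from mitochondrial genes and below 1.5% from ribosomal protein genes left 8067 nuclei. Scrublet, run through scanpy at an expected rate of 6%, marked 52 doublets (0.645%), which were kept. Clusters of single libraries with at least 3 myogenic markers in at least 50% of nuclei were removed (6496 left), as were 212 nuclei of a myogenic-like cluster after integration. Libraries were integrated with Seurat (canonical correlation anchors, 20 components, resolution 1.3) without 178 marker, list and member genes among the features. Clusters were named from marker genes. Where class scores lay within 0.5, the class with more markers among the 10 leading genes gave the name, a rule set after seeing the data.

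CPM are UMIs per 1000000 UMIs, with exact Poisson 95% intervals. Shares used nuclei thinned to 500 UMIs, with exact binomial (Clopper-Pearson) intervals. Library sums of day 3 (n = 2) and uninjured (n = 2) were compared with edgeR (filterByExpr, TMM, glmQLFit, glmQLFTest, two-sided), adjusted by Benjamini-Hochberg over all genes tested, with a threshold of 0.05. Each SE is the fold change divided by the root of its F statistic. The fits were tested on simulated data in which 200 genes differed by 3 on the log2 scale, and 87.3% of the changed genes tested were called in stromal, 55.9% in myeloid, 93.4% in endothelial-like and 87.8% in all nuclei, with 5, 2, 3 and 2 unchanged genes called. Named are the 6 genes, at most 3 called genes per direction of each pathway list by size of change, and the 3 genes most correlated with each of the 6, except 1 gene of a list that is not reported here. The genes and lists were chosen with earlier results of these data known. Alternatives were DESeq2, no filter, no TMM, each library left out, doublets removed, resolution 0.8, no integration, wider limits on nuclei, software version as a covariate, other sets of nuclei and other thinning. Added after seeing the data were the sets of fibroblast-like or macrophage-like nuclei alone, the removal of the low-depth IIFC-like cluster and the joining of fibroblast-like with IIFC-like nuclei.

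Gene coordinates follow GENCODE M21 on GRCm38. Python 3.11.15 ran scanpy 1.11.5, scipy 1.17.1, pandas 2.3.3 and numpy 2.4.6, and R 4.3.3 ran DESeq2 1.42.0, edgeR 4.0.16 and Seurat 5.3.0.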

Additional observations from a re-analysis of the deposited data

Results flagged for a closer look

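The direction of Tnfrsf11a at day 3 was opposite in 2 sets of nuclei. In stromal nuclei it was at 0 and 1.55 CPM in the uninjured libraries and 5.07 and 39.5 CPM at day 3, so both day 3 libraries were higher, although day 3 replicate 1 held 2 UMIs, as many as uninjured replicate 2, and the difference rests on day 3 replicate 2 (71 UMIs), in which the macrophage (384 CPM) and monocyte/dendritic markers (251 CPM) of stromal nuclei were also the highest of these 4 libraries. In endothelial-like nuclei it was at 97.2 and 107 CPM uninjured and 44.1 and 81.5 CPM at day 3, so both were lower. This difference between the sets was not tested.

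Signal for 3 of the genes also lay in nuclei that the comparisons leave out. In the myogenic clusters removed from single libraries, Tnfrsf11a was at 0 and 1.99 CPM in the uninjured libraries (0 and 4 UMIs) and 3.96 and 20.8 CPM at day 3 (6 and 51 UMIs). Csf1 in the same nuclei was at 1.83 and 9.46 CPM uninjured (1 and 19 UMIs) and 30.4 and 34.3 CPM at day 3 (46 and 84 UMIs), with 38.5 CPM at day 5 and 14.4 CPM at day 7. Il34 in the myogenic-like cluster of the integrated data was at 0 and 0 CPM uninjured (9 and 24 nuclei) and 276 and 167 CPM at day 3 (24 UMIs in 33 nuclei and 100 UMIs in 74 nuclei), then 17.2 CPM at day 5.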

How the results depend on the processing

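Of 346 values recomputed under an alternative, 285 were counted as unchanged. For fold changes (150 of 170) this meant the same side of the threshold, with no reversal where either value passed. Where neither passed, the sign could change, as for myeloid Tnfrsf11a (0.11, and -0.12 without TMM scaling). Counts of genes called (29 of 53) had to stay within a fixed fold of the main count. Descriptive values (106 of 123) had to move by less than the replicate spread. None of the 6 genes' fold changes that passed the test reversed. No paired analysis was possible because the replicate numbers follow accession order and pair no samples.

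Leaving out 1 library at a time, genes called ranged from 338 to 900 in stromal, 0 to 361 in myeloid, 0 to 384 in endothelial-like and 319 to 1346 in all nuclei. The log2 fold changes ranged from 3.15 to 8.55 (Tnfsf11), -1.32 to -0.11 (Csf1), -2.17 to -0.59 (Il34) and 3.50 to 7.61 (Csf1r) in stromal nuclei, from -0.44 to 3.09 (Tnfrsf11a) and -0.26 to 0.86 (Csf1r) in myeloid nuclei, and from 2.85 to 4.63 (Tnfsf11), 0.31 to 1.91 (Tnfrsf11a), -3.41 to -2.99 (Il34) and 2.33 to 4.89 (Csf1r) in all nuclei. Fibroblast-like Tnfsf11 ranged from 39.4 to 63.1 CPM, and together with IIFC-like nuclei from 44.7 to 53.0 CPM. Counts of 0 genes called came without uninjured replicate 1 in endothelial-like nuclei (696 at an unadjusted p under 0.05) and without day 3 replicate 2 in myeloid nuclei (189); DESeq2 was not run with libraries left out.

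Under the other settings, stromal calls went from 769 to 1157 (587 higher, 570 lower) with no filter and to 238 in fibroblast-like nuclei alone. Myeloid calls went from 33 to 8 with DESeq2, 20 without doublets, 15 without integration, 17 with software version as a covariate and 20 in macrophage-like nuclei alone. Endothelial-like calls went from 238 to 695 with no filter and 480 with wider limits on nuclei. Calls in all nuclei went from 1091 to 1668 with DESeq2, 2594 with no filter, 298 with the version covariate and 302 with myogenic nuclei kept. Stromal Tnfsf11 (log2 fold change 2.10) and Csf1r (3.15) lost their calls at resolution 0.8, and Csf1r with DESeq2 (3.81). Stromal Il34 gained a call with tendon-like nuclei (-3.37). In all nuclei Tnfsf11 lost its call with the version covariate (3.70) and with myogenic nuclei kept (3.58), as did Il34 with the latter (-0.25), while calls were gained with no filter by Tnfrsf11a (1.44) and Csf1r (3.14) and with DESeq2 by Csf1r (3.12). The cause was not tested. Without TMM scaling, endothelial-like calls split into 131 higher and 77 lower against 123 and 115, and the median of all genes there moved from -0.01 to 0.13.

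Without integration the fibroblast-like class held 0 CPM of Tnfsf11, but it was another set of 104 nuclei, led by Luzp2, Ntng1 and Tenm2 and 50 and 42 of them uninjured, while the cluster led by Bmper and Sfrp1 (441 nuclei) took no name, and at resolution 0.8 no fibroblast-like class formed and the stromal share of Csf1 UMIs was 36.4%. Shares of nuclei with a UMI, at 1000 UMIs and not thinned, were 4.24% and 12.1% (Tnfsf11, fibroblast-like), 4.44% and 7.28% (Tnfrsf11b, osteoblast-like), 58.2% and 76.7% (Tnfrsf11a, osteoclast-like), 13.8% and 28.5% (Csf1, SSPC-like), 25.7% and 42.1% (Il34, pericyte/SMC-like) and 27.8% and 47.8% (Csf1r, osteoclast-like). Depth was lowest in uninjured replicate 1 for myeloid (9073 UMIs) and stromal nuclei (137702 UMIs) and in day 3 replicate 1 for endothelial-like (90667 UMIs) and all nuclei (869080 UMIs).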

Other observations

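Tnfsf11 and Csf1 were found together in 34 stromal nuclei, 14.98% of the 227 nuclei with Tnfsf11 and 10.8% of the 316 with Csf1, at a median of 8847.5 UMIs per nucleus against 2627 for all stromal nuclei. Single nuclei held much of some counts: 1 IIFC-like nucleus of day 3 replicate 2 had 17 of that library's 41 IIFC-like Tnfsf11 UMIs, and 1 SSPC-like nucleus held all 7 Tnfrsf11b UMIs of the day 5 SSPC-like nuclei. In the cluster that kept no name, 11 nuclei of day 5 held 8 Tnfsf11 UMIs, 5 of them in 1 nucleus. In the myogenic clusters removed from single libraries, Il34 was at 66.7 CPM in day 3 replicate 1 (101 UMIs) and 2.04 CPM in day 3 replicate 2 (5 UMIs), so the day 3 libraries differed.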
